A study of Mus musculus with 8 samples.

Results

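Small nucleolar RNA (snoRNA) host genes and the Rosa26 transcript are spliced RNAs that encode no known conserved protein. Gas5, Snhg1, Snhg3, Snhg5, Snhg6, Snhg8, Snhg12 and Gt(ROSA)26Sor, written Rosa26 here, were followed across genotype and RNA fraction. They were picked by gene symbol, and all 8 symbols were found among the 24420 rows of the total RNA table. Only 3 of the 8, Snhg3, Snhg5 and Rosa26, were among the 5804 rows of the polysomal table. All 8 passed the filter on low counts in total RNA (14594 genes passed), and all 3 passed it in polysomal RNA (5777 genes passed).

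RNA sequencing was done on brain or neural tube tissue, as separate label fields name it, of mouse embryos at E11.5. There were 4 groups of 2 libraries. The dKO groups, polysomal and total RNA, came from embryos with the genotype Lin28a-/-;b-/-, which lack both paralogous RNA-binding proteins Lin28a and Lin28b, and the WT groups, polysomal and total RNA, came from wild-type (control) embryos. How many embryos went into a library, their strain and how polysomes were isolated is not stated in the labels used here. Nothing states that replicates came from separate embryos, so a p-value here speaks of the spread among these libraries alone, which may be technical. In whole tissue, fewer cells of a type and less RNA per cell cannot be told apart.

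snoRNAs are short RNAs that sit in introns of host transcripts and are released from the spliced-out intron. Those of the box C/D class guide ribose methylation and those of the box H/ACA class guide pseudouridylation, mostly of ribosomal RNA. In the hosts studied here the exons encode no known conserved protein. Several such spliced hosts, Gas5 and Snhg1 among them, are known to reach the cytoplasm and to be read by ribosomes over short open reading frames. They are then removed by nonsense-mediated decay, a pathway that degrades RNAs whose stop codon lies well upstream of an exon junction. Many hosts begin with a run of pyrimidines, the feature by which growth signals control the translation of ribosomal protein mRNAs. Rosa26 hosts no annotated snoRNA; it is the broadly expressed noncoding transcript of the locus that is widely used to insert transgenes in the mouse. Lin28 proteins bind the let-7 precursor and many mRNAs, with a preference for GGAG.

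In GENCODE M21 on GRCm38 the hosts differ in how many snoRNA loci they carry. Gas5 (chr1:161034422-161038539, plus strand) carries 9, one of them under a microRNA symbol, and Snhg1 (chr19:8723475-8726443, plus strand) carries 8. Both are box C/D hosts, as are Snhg5 (chr9:88521050-88522929, minus strand) with 2 loci, Snord50a and Snord50b, and Snhg6 (chr1:9941959-9944118, minus strand) with 1, Snord87. Snhg3 (chr4:132348014-132353686, minus strand) holds 2 box H/ACA loci, Snora73a and Snora73b. Snhg8 (chr3:123507552-123508404, minus strand) holds 1, Snora24. Snhg12 (chr4:132308623-132311024, plus strand) holds 4 of both classes. Rosa26 (chr6:113067428-113077333, minus strand) is annotated as antisense.

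Some counts may be shared with a neighbour. Snhg3 overlaps the same-strand gene Rcc1 over 5592 bases, most of its length, so reads there could be given to either gene or to none. On the opposite strand, Rosa26 overlaps Thumpd3 over 846 bases, Gas5 overlaps Zbtb37 over 428 bases and Snhg6 overlaps Mcmdc2 over 127 bases. The libraries were made with a strand-specific kit, but how strand was treated in counting is not given in those sources. Apart from those in Snhg6 and the locus of Snora73b in Snhg3, every snoRNA locus inside a host also overlaps some annotated exon of that host, mostly of transcripts that retain an intron.

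Sequences around the start site were available for 6 of the 8 genes from RefSeq (GRCm38.p6), and the start windows of 5 of them, Gas5, Snhg1, Snhg5, Snhg8 and Snhg12, are shown because a short start signal is what several of these hosts share. Each runs from 50 bases before to 50 bases from the annotated start, 5′ to 3′ on the gene's strand. Capitals mark TATAA or its reverse complement TTATA, and a run of at least 5 pyrimidines that begins within 5 bases of the start. The windows lie at chr1:161035116-161035215 (Gas5, the second of its 2 annotated starts), chr19:8723437-8723536 (Snhg1), chr9:88522848-88522947 (Snhg5), chr3:123508287-123508386 (Snhg8) and chr4:132308628-132308727 (Snhg12).
Gas5: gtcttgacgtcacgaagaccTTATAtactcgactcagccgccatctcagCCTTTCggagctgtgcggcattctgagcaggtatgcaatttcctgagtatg
Snhg1: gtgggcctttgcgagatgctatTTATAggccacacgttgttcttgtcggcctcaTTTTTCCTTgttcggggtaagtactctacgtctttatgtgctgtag
Snhg5: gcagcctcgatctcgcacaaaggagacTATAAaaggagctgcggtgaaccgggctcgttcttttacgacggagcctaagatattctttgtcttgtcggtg
Snhg8: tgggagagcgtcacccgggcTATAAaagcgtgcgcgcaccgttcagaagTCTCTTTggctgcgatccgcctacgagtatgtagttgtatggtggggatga
Snhg12: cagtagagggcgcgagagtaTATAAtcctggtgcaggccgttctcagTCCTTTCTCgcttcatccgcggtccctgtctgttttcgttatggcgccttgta

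The pyrimidine run was present in 5 of the 7 start windows of these genes (both Gas5 starts counted), against 22% of all 32851 annotated start windows. In Snhg12 it is 9 bases long and in Snhg8 it is 7. Snhg5 has its pyrimidines just outside the limit, at the start of its spliced transcript, and the first Gas5 start has no such run. TATAA on the sense strand, 40 to 16 bases before the start, was present in Snhg5, Snhg8 and Snhg12, that is in 3 of 7 windows, against 3.52% of all windows. On either strand of the whole window of 300 bases, TATAA was present in 6 of 7 windows, against 24.9% of all. TGACGTCA was present in 1 of 7 (Gas5), against 1.79% of all, and CACGTG in 0 of 7, against 7.15% of all. These features were looked for after the windows had been seen, and a match is a description only.

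The spliced transcripts are short, from 400 bases for Snhg6 to 1181 bases for Rosa26. In 7 of the 8 the first ATG opens a reading frame that ends upstream of at least 1 exon junction. Gas5 has 7 junctions after a first frame of 23 codons, Snhg1 has 6 after 40 codons, Snhg12 has 4 after 54 codons and Snhg6 has 2 after 53 codons. Snhg3 is the exception, with a first frame of 42 codons that ends in the last exon. The frame of Rosa26 ends only 9 bases before its single junction. That of Snhg8 is only 1 codon long, with 1 junction after it. The first 300 bases of the spliced transcripts of Snhg5 and Rosa26, both with polysomal counts, follow, on the strand of the gene, with the first reading frame, stop codon included, in capitals; they begin at the minus-strand ends of chr9:88521052-88522890 (Snhg5) and chr6:113070398-113077210 (Rosa26).
Snhg5: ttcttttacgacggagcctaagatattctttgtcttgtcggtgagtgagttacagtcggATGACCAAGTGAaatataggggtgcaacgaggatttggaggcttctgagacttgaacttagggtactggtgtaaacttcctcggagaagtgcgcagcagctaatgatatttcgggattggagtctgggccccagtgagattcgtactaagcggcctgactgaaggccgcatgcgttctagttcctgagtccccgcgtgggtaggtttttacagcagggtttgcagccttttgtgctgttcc
Rosa26: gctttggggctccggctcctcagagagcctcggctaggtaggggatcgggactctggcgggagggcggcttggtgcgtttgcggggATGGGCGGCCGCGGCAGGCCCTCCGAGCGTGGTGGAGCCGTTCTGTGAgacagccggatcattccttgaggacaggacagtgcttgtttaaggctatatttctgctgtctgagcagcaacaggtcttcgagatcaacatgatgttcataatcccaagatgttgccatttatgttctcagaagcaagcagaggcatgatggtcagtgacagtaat

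Snhg5 reads only 3 codons from its first ATG and Rosa26 reads 15. The first frame of Snhg5 is followed by 4 junctions, the last of them 536 bases downstream of the stop. GGAG, searched on the sense strand alone, occurred at 12.03 per kb in the Gas5 transcript, 7.97 per kb in Snhg5, 2.54 per kb in Rosa26 and 2.29 per kb in Snhg3. Over 18376 transcripts with counts, 98.3% held at least 1 GGAG, with a median of 6.83 per kb and quartiles of 5.08 and 8.9. Of the 3 genes with polysomal counts, Snhg5 thus lay between the quartiles, and Rosa26 and Snhg3 lay under the lower one. The Snhg3 value rests on 1 GGAG in a transcript of 437 bases. The background used the longest transcript without a retained intron, which has 581 bases for Snhg3, so its place is approximate.

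Library totals of the total RNA table ran from 15060560 to 15768767 counts. Sums over the polysomal table were 3740980 and 5164982 counts in dKO and 14874143 and 15414712 in WT; they cover listed genes only and are not library depths. Among polysomal rows averaging 100 or more counts, there was an empty interval of the raw dKO over WT log2 ratio, from -2.04 to -1.71, with 2927 genes below it and 2514 above. The polysomal rows therefore look chosen for a genotype difference, and p-values from them hold only given that choice. Counts of the 2 dKO polysomal libraries differed most between replicates (chi-square per degree of freedom 25.2, against 2.89 in WT polysomal RNA). Lin28a averaged 7.14 ± 0.833 CPM (counts scaled to the library sum) in dKO and 72.8 ± 0.792 CPM in WT total RNA, and Lin28b 51.6 ± 4.99 CPM in dKO and 125 ± 4.03 CPM in WT (SD, n = 2 each), which fits the labels. Neural progenitor markers (Sox2, Nes, Pax6, Hes5, Fabp7) summed to 1900 and 1910 CPM in dKO and 2060 and 2030 CPM in WT total RNA, so the labelled tissue is present.

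The first comparison asks whether loss of both Lin28 genes alters the amount of these RNAs in whole tissue. Most of the 8 differed little between genotypes. Snhg6 was higher in dKO and Snhg3 was lower, with log2 fold changes of 0.44 and -0.44, and the other 6 did not pass the test. The median log2 fold change of the 8 was 0.07, beside 0.003 over all tested genes. With 1 higher and 1 lower of 8, the genes were called no more often than the background, where 30.7% of 14594 genes were called, 14.7% higher and 16% lower.

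**Figure D1:**
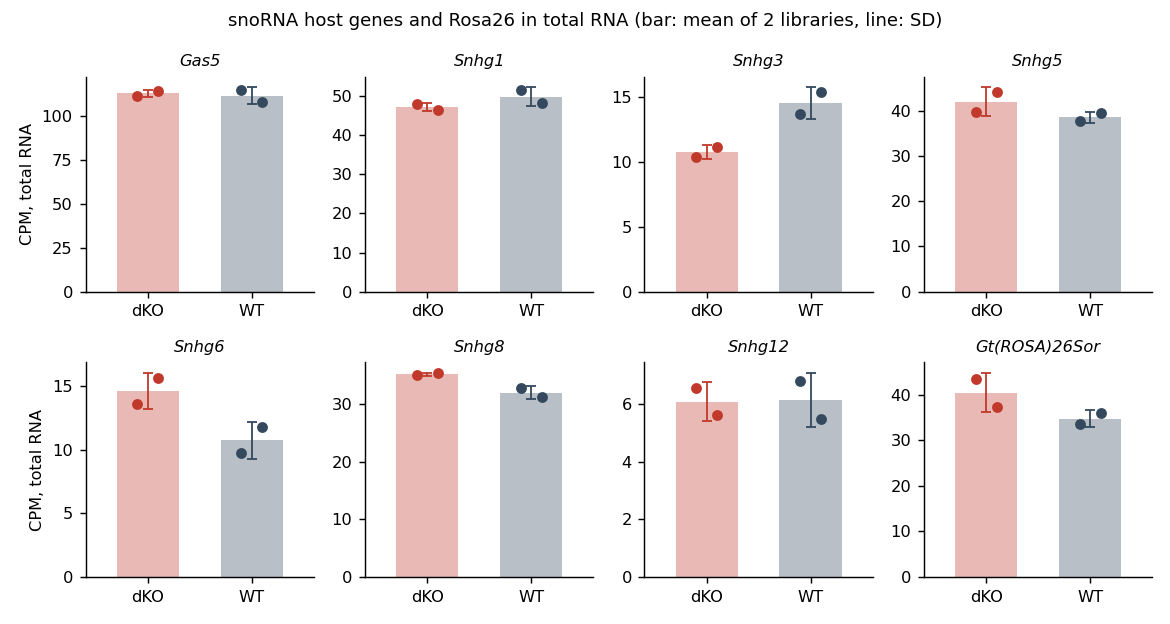
CPM (vertical axis, from 0) of the 8 genes in total RNA of dKO and WT embryos; points are libraries, bars are means and lines are SD (n = 2). Snhg3 lies lower in both dKO libraries and Snhg6 lies higher in both, while the libraries of Gas5 and Snhg12 overlap between genotypes.

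Among the box C/D hosts, Gas5, named for its rise in growth-arrested cells, had 112 and 114 CPM in dKO, against 115 and 108 CPM in WT. The dKO values lay inside the WT range, and the log2 fold change was 0.02 (SE 0.06, adjusted p = 0.860). Zbtb37, which overlaps Gas5 on the opposite strand, was higher in dKO total RNA (0.32, SE 0.10, adjusted p = 0.00934, edgeR). Its part in the Gas5 counts was not tested. Snhg1 had 48.0 and 46.6 CPM in dKO, against 51.6 and 48.2 CPM in WT. Both dKO libraries lay just below both WT libraries, at -0.08 on the log2 scale (SE 0.09, adjusted p = 0.561). Snhg5 had 39.8 and 44.3 CPM in dKO, against 37.7 and 39.5 CPM in WT. The dKO libraries lay above WT by less than the spread of the dKO pair, at 0.12 (SE 0.10, adjusted p = 0.364).

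Snhg6, the host of Snord87, rose in dKO. It had 214 and 243 counts (13.6 and 15.7 CPM) in dKO, against 153 and 178 counts (9.75 and 11.8 CPM) in WT. Both dKO libraries lay above both WT libraries, and the gap between the nearest libraries was smaller than the gap within either pair. The log2 fold change was 0.44 (SE 0.17, adjusted p = 0.0274, edgeR). The call was lost with DESeq2 (adjusted p = 0.126), without dKO replicate 2 (0.276), without WT replicate 1 (0.259) and with an adjustment for transcript GC content (0.0623), always with the same sign.

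Of the hosts with box H/ACA snoRNAs, Snhg3 fell in dKO. It had 163 and 173 counts (10.4 and 11.2 CPM) in dKO, against 215 and 233 counts (13.7 and 15.4 CPM) in WT. Its libraries did not overlap, and the log2 fold change was -0.44 (SE 0.17, adjusted p = 0.0315). The sign held throughout, but the call was lost with DESeq2 (adjusted p = 0.120), without dKO replicate 1 (0.187), without dKO replicate 2 (0.0806), without WT replicate 2 (0.200) and in the fit of all 8 libraries (0.131). Rcc1, the same-strand gene that covers most of Snhg3, had 944 and 950 counts in dKO, against 1115 and 981 in WT, and did not pass (-0.16, SE 0.08, adjusted p = 0.0920); its part in the Snhg3 counts was not tested.

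Snhg8, the host of Snora24, had 35.1 and 35.4 CPM in dKO, against 32.9 and 31.2 CPM in WT. The libraries were separate, yet the log2 fold change of 0.14 did not pass (SE 0.11, adjusted p = 0.355). Snhg12 was the least abundant, with 103 and 87 counts in dKO, against 107 and 83 in WT (6.55 and 5.61 CPM in dKO, against 6.82 and 5.49 CPM in WT). The dKO values fell inside the WT range, at -0.02 on the log2 scale (SE 0.24, adjusted p = 0.968). At this depth a difference in Snhg12 within that error was not detectable.

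Rosa26 had 43.5 and 37.4 CPM in dKO, against 33.4 and 36.1 CPM in WT. The dKO libraries were higher, and the log2 fold change was 0.22 (SE 0.10, adjusted p = 0.0868); without dKO replicate 2 it was 0.32 and passed (adjusted p = 0.0389), while without dKO replicate 1 it was 0.10 (adjusted p = 0.628) and with the GC adjustment 0.09 (adjusted p = 0.542). Thumpd3, on the opposite strand, had 439 and 425 counts in dKO, against 551 and 530 in WT, which is lower in dKO (-0.34, SE 0.11, adjusted p = 0.00844). Setd5, the other neighbour of Rosa26, had a log2 fold change of 0.06 (adjusted p = 0.242).

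The dKO libraries lay wholly above WT for 4 of the 8 genes (Snhg5, Snhg6, Snhg8 and Rosa26), wholly below for 2 (Snhg1 and Snhg3) and overlapped for 2 (Gas5 and Snhg12). The share without overlap was 75%, beside 62.3% of all tested genes.

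Levels were compared between genes as CPM per kb of spliced transcript. Gas5 was highest, at 170 ± 2.83 in dKO and 167 ± 7.28 in WT (SD, n = 2 each), followed by Snhg1 (78.2 ± 1.64 in dKO and 82.5 ± 3.91 in WT) and Snhg8 (66.8 ± 0.509 in dKO and 60.7 ± 2.18 in WT). Snhg12 was lowest, at 10.04 ± 1.11 in dKO and 10.2 ± 1.55 in WT. Between them the order differed by genotype. In dKO, Snhg5 (41.9 ± 3.16), Snhg6 (36.6 ± 3.61), Rosa26 (34.3 ± 3.69) and Snhg3 (24.6 ± 1.26) followed in that order. In WT it was Snhg5 (38.5 ± 1.26), Snhg3 (33.3 ± 2.80), Rosa26 (29.4 ± 1.57) and Snhg6 (26.9 ± 3.60). Libraries of Snhg6 and Rosa26 overlapped in both genotypes, so those neighbours did not differ beyond their spread; the other neighbours in each order were separate, but only narrowly for Snhg5 and Snhg6 in dKO and for Snhg3 and Rosa26 in WT. Divided by the whole exonic length of the gene instead, which counts retained introns, Snhg8 (41.3 in dKO and 37.6 in WT) came before Gas5 (30.0 in dKO and 29.6 in WT). Snhg1 (15.9 in dKO and 16.8 in WT) then came after Snhg5 (24.3 in dKO and 22.3 in WT) and Rosa26 (23.9 in dKO and 20.5 in WT). The order thus depends on which transcript is assumed, and Snhg12 was lowest by either length.

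Rows for 8 snoRNAs inside the hosts exist in the total RNA table, at low counts. Snord22, inside Snhg1, was the most counted, with 40 and 41 counts in dKO, against 85 and 53 in WT (log2 fold change -0.78, SE 0.33, adjusted p = 0.0567). Snora61, inside Snhg12, had 12 and 30 counts in dKO, against 9 and 16 in WT, and Snora16a, inside the same host, had 19 and 24 in dKO, against 29 and 21 in WT. Neither passed the test, and the remaining 5 failed the filter, with Snora24 at 0 in every library. None of these rows passed the threshold, and at such counts a difference of moderate size was not detectable.

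Related genes in total RNA show how the 8 sit among their kind. Of 13 other noncoding snoRNA hosts tested, 2 rose in dKO, Snhg14 (log2 fold change 0.43) and Rian (0.28), both long imprinted transcripts with arrays of snoRNAs, and 1 fell, Snhg11 (-0.38). The median was 0.01. Of 21 protein-coding hosts tested, 7 rose, among them Rps20 (0.34) and Eef2 (0.31), and 4 fell, among them Nop56 (-0.34) and Eif4a1 (-0.22), with a median of 0.07. Both medians lay near that of all genes (0.003), of which 30.7% were called, 14.7% higher and 16% lower.

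Genes whose products act on the snoRNAs and on the spliced hosts were counted in the same way. Of 17 snoRNP proteins and assembly factors tested, 0 rose and 10 fell, with a median of -0.38, beside 14.7% higher and 16% lower among all genes. Those that fell include Nop58 (-0.47), a core protein of box C/D particles, Dkc1 (-0.33), the pseudouridine synthase of box H/ACA particles, and the assembly factors Ruvbl1 (-0.93) and Rpap3 (-0.87). Nop56 and Dkc1 are also snoRNA hosts and stand in both lists. Of 15 factors of nonsense-mediated decay, 0 rose and 5 fell, among them the helicase Upf1 (-0.38) and the exon junction proteins Eif4a3 (-0.55) and Casc3 (-0.34), with a median of -0.16. The share of decay factors called, 5 of 15, was near the 30.7% of all genes. For comparison, of 6 other long noncoding RNAs, Malat1 (0.43), Neat1 (0.58) and Miat (0.18) rose, Xist (-0.61) fell, and Meg3 and Kcnq1ot1 did not pass. The part of embryo sex in the Xist difference was not tested.

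**Figure D2:**
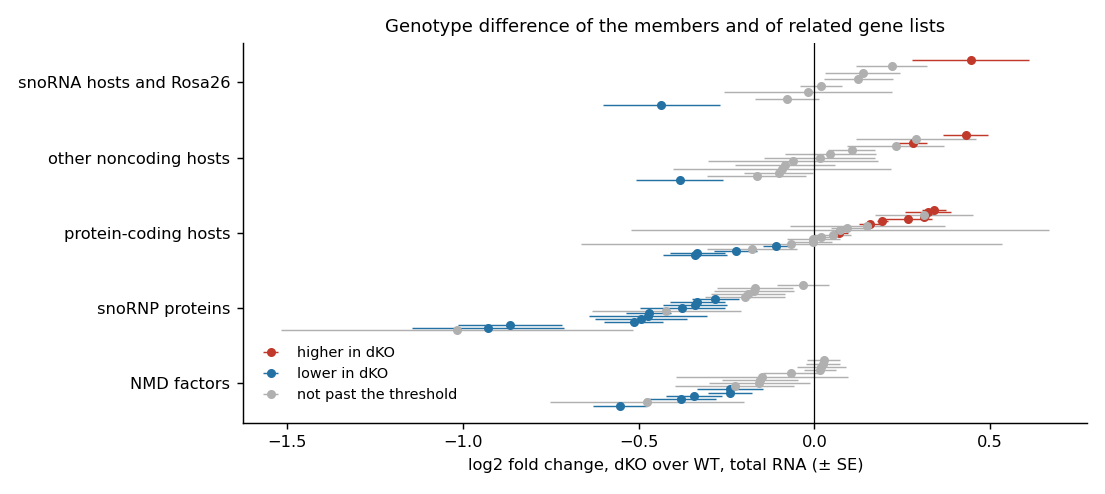
Log2 fold change of dKO over WT in total RNA (horizontal axis) for the 8 genes and the genes of 4 related lists; points are genes, lines are SE, and colours give the call at an adjusted p of 0.05. The 17 snoRNP proteins all lie below zero, with 10 called lower, while the 8 genes and the 2 host lists scatter around zero.

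The second comparison is of the libraries labelled polysomal, a fraction meant to hold RNA carried by several ribosomes. All 3 listed genes were lower in dKO than in WT. Snhg3 and Rosa26 were almost gone from the dKO polysomal libraries, and Snhg5 was at 0.550 of its WT level by the fitted fold change. With 99.7% of the listed genes called (47.2% higher, 52.5% lower), the 3 calls by themselves say nothing beyond the way the rows were chosen, and 100% of the genes had libraries that did not overlap. The sizes are therefore given with their place among the listed genes.

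Snhg3 had 0 and 3 counts in dKO polysomal RNA, against 276 and 318 counts in WT polysomal RNA. These are 0 and 0.591 CPM in dKO, against 17.5 and 19.5 CPM in WT, relative to the listed genes. Both dKO libraries were thus near nothing, while Snhg3 was well counted in both WT libraries. The ratio of summed counts, each relative to the sum over listed genes, was 0.0172 (exact 95% interval 0.00353 to 0.0504), or 58.2-fold lower in dKO (19.8 to 283), where the interval covers counting error only. The fitted log2 fold change was -5.67 (SE 0.56, adjusted p = 0.000282), rank 44 from the lowest of 5777. On the dKO side this fold change rests on the 3 counts of polysomal replicate 2. The fold change was -4.95 without dKO polysomal replicate 1. Without dKO polysomal replicate 2, which leaves dKO at 0, the fit gave -10.78, a value that depends on the prior count.

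Rosa26 had 3 and 11 counts in dKO polysomal RNA, against 398 and 445 counts in WT polysomal RNA (0.882 and 2.17 CPM in dKO, against 25.3 and 27.3 CPM in WT). Every WT value was more than 10 times every dKO value. The ratio of summed counts was 0.0565 (exact 95% interval 0.0307 to 0.0953), or 17.7-fold lower in dKO (10.5 to 32.5). The fitted log2 fold change was -3.997 (SE 0.35, adjusted p = 0.000201), rank 60 from the lowest. It was -3.60 without dKO polysomal replicate 1 and -4.91 without dKO polysomal replicate 2.

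Snhg5 had 105 and 157 counts in dKO polysomal RNA, against 833 and 968 counts in WT polysomal RNA. Scaled to the listed genes, this was 30.9 CPM in both dKO libraries, against 52.9 and 59.4 CPM in WT. The dKO pair was nearly identical and well under WT, at -0.86 on the log2 scale (SE 0.14, adjusted p = 0.00179). At rank 1567 from the lowest it lay in the bulk of the listed genes.

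The median log2 fold change of all listed genes was -0.35; relative to it, Snhg3 stood at -5.32, Rosa26 at -3.65 and Snhg5 at -0.51. Transcript GC content moved with the polysomal difference. Among listed genes within 2 percentage points of the GC of Rosa26 (37.09%, 274 genes) the median was -1.35, of Snhg3 (42.69%, 1172 genes) -0.92 and of Snhg5 (45.12%, 1112 genes) -0.75. Snhg5 was thus close to genes of like GC. With an adjustment for GC, Snhg3 was at -4.80 and Rosa26 at -2.56, both still called, and Snhg5 at -0.21 (adjusted p = 0.271). The part of GC content in these differences was not tested beyond this adjustment.

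**Figure D3:**
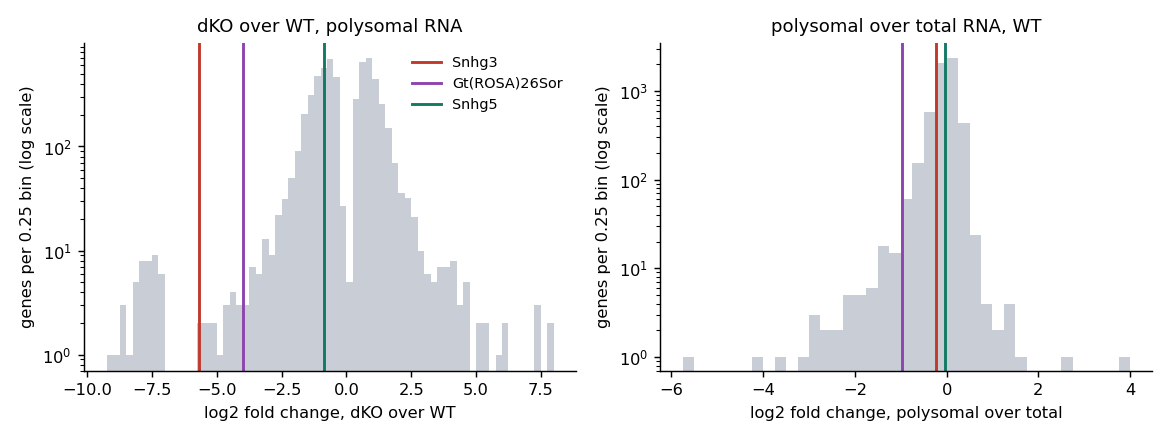
Numbers of genes per bin of 0.25 (vertical axis, log scale) by log2 fold change of dKO over WT in polysomal RNA (left) and of polysomal over total RNA in WT (right); coloured lines mark the 3 listed genes. On the left Snhg3 (-5.67) and Rosa26 (-3.997) lie in the sparse lower tail and Snhg5 (-0.86) lies in the bulk, while on the right Rosa26 (-0.98) lies furthest out of the 3.

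The third comparison sets polysomal against total RNA within a genotype, over the 5780 tested genes of both tables, with CPM relative to those genes. In WT, Rosa26 was lower in polysomal RNA, with 25.4 and 27.3 CPM, against 49.9 and 53.9 CPM in total RNA. The pairs were far apart, at a log2 ratio of -0.98 (SE 0.14, adjusted p = 0.00137) and rank 69 from the lowest of 5780. Snhg3 had 17.6 and 19.5 CPM in WT polysomal RNA, against 20.4 and 23.1 CPM in WT total RNA. Snhg5 had 53.1 and 59.4 CPM in WT polysomal RNA, against 56.3 and 59.1 CPM in WT total RNA. The Snhg3 libraries were separate by a small margin and those of Snhg5 overlapped, and neither gene passed the test (-0.23, SE 0.19, adjusted p = 0.504 for Snhg3, and -0.04, SE 0.11, adjusted p = 0.875 for Snhg5). In this comparison 12% of genes were called (3.48% higher, 8.51% lower), and 1 of the 3 was. The median of all genes was -0.003. For Snhg3 and Snhg5 a missed threshold does not show that the fractions were alike, and differences of the size of these errors remain possible.

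In dKO all 3 were lower in polysomal than in total RNA, where 90% of genes were called (43.1% higher, 46.9% lower). Snhg3 had 0 and 0.606 CPM in dKO polysomal RNA, against 15.4 and 16.5 CPM in dKO total RNA. Its log2 ratio was -5.42 (SE 0.48, adjusted p = 2.04e-06); it was -4.68 without dKO polysomal replicate 1 and -10.46 without dKO polysomal replicate 2. Rosa26 averaged 1.56 ± 0.938 CPM in dKO polysomal RNA and 60.1 ± 6.53 CPM in dKO total RNA (SD, n = 2 each). Its log2 ratio was -5.15 (SE 0.26, adjusted p = 6.83e-08). The ratio of Rosa26 was -4.74 without dKO polysomal replicate 1 and -6.05 without dKO polysomal replicate 2. Snhg5 had 31.4 and 31.7 CPM in dKO polysomal RNA, against 59.2 and 65.8 CPM in dKO total RNA, a log2 ratio of -0.98 (SE 0.13, adjusted p = 2.99e-05). For each gene, the dKO polysomal libraries lay under the dKO total libraries, by far for Snhg3 and Rosa26. Of 6 other long noncoding RNAs, mostly nuclear, 3 were listed in both fractions. In WT, Xist (-0.03) and Kcnq1ot1 (0.02) did not pass, and Miat (-0.37) was lower in polysomal than in total RNA. In dKO, Xist (-1.79) and Kcnq1ot1 (-0.87) were lower in polysomal RNA and Miat (0.46) was higher. The median absolute log2 ratio of all genes was 0.13 in WT and 0.82 in dKO. How much RNA not carried by ribosomes the polysomal libraries held was not tested.

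**Figure D4:**
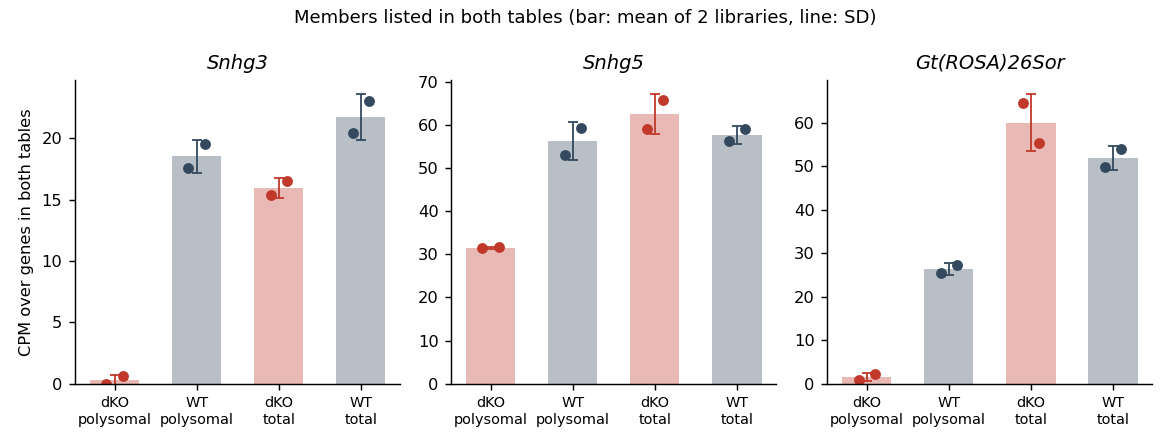
CPM over the genes of both tables (vertical axis, from 0) of Snhg3, Snhg5 and Rosa26 in dKO polysomal, WT polysomal, dKO total and WT total RNA; points are libraries, bars are means and lines are SD (n = 2). The dKO polysomal libraries of Snhg3 and Rosa26 lie near 0, and those of Snhg5 lie at about 31 CPM, under all its other libraries.

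The interaction tests whether the genotype difference itself differs between the fractions. It was -5.19 for Snhg3 (SE 0.55, adjusted p = 1.56e-05), -4.17 for Rosa26 (SE 0.33, adjusted p = 2.76e-06) and -0.95 for Snhg5 (SE 0.16, adjusted p = 0.000374) on the log2 scale. Each genotype difference was thus lower in polysomal than in total RNA. The interaction was called for 89.5% of genes, 43.7% higher and 45.8% lower, and its median was -0.13. Without dKO polysomal replicate 2 the interaction was -10.23 for Snhg3 and -5.07 for Rosa26. Without dKO polysomal replicate 1 it was -4.46 for Snhg3 and -3.76 for Rosa26.

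Of 18 symbols of other noncoding hosts looked for, with Epb4.1l4aos under an old and a new symbol, 5 were in both tables. These 5 did not share one direction in dKO polysomal RNA. Snhg14 (-1.17) and Rian (-0.85) were lower in dKO than in WT polysomal RNA, and Epb4.1l4aos (1.001), 2410006H16Rik (0.68) and 1110038B12Rik (0.66) were higher. Snhg14 had 82 and 165 counts in dKO polysomal RNA, against 1019 and 1046 in WT. Epb4.1l4aos had 82 and 128 counts in dKO, against 195 and 200 in WT, which is higher in CPM (24.1 and 25.2 in dKO, against 12.4 and 12.3 in WT) because the dKO sums over listed genes are smaller. None of the 5 was close to absent from the dKO polysomal libraries.

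In WT, 4 of these 5 hosts were lower in polysomal than in total RNA, by log2 ratios of -0.96 (Snhg14), -0.87 (Rian), -0.76 (Epb4.1l4aos) and -0.59 (1110038B12Rik), while 2410006H16Rik (-0.50) did not pass. Their median was -0.76, against -0.003 over all genes, of which 8.51% were called lower and 3.48% higher. The corresponding value was -0.98 for Rosa26, -0.23 for Snhg3 and -0.04 for Snhg5. In dKO the polysomal over total ratio was -2.51 for Snhg14 and -1.96 for Rian, both called, and 0.26 for Epb4.1l4aos, 0.30 for 2410006H16Rik and -0.01 for 1110038B12Rik, none called. The 5 hosts thus stood in a narrow range in WT and split into 2 sets in dKO. The polysomal rows look chosen for a genotype difference, so a host with little difference in polysomal RNA would likely be missing. The split therefore cannot be read as a trait of these hosts.

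**Figure D5:**
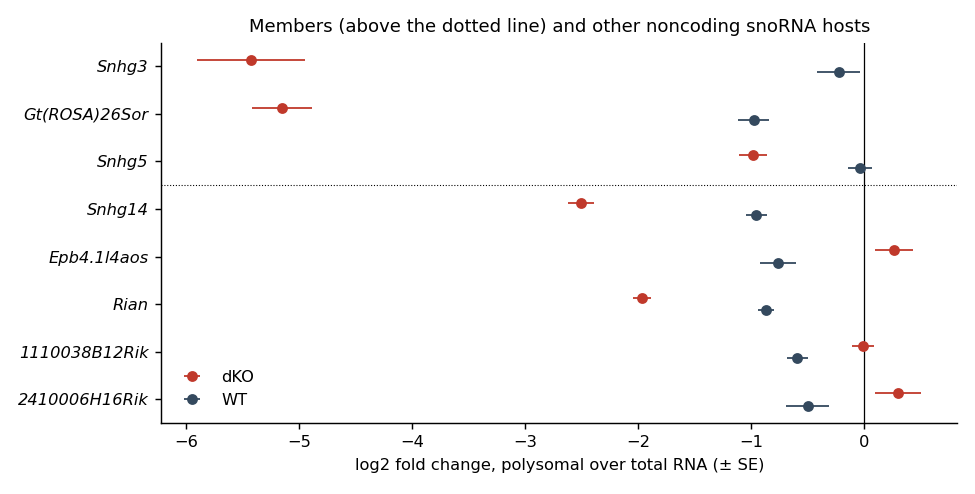
Log2 ratio of polysomal over total RNA (horizontal axis) in dKO and in WT for Snhg3, Rosa26 and Snhg5 (above the dotted line) and the 5 other noncoding hosts in both tables; points are fitted values and lines are SE. In WT every gene lies between -0.98 and -0.04, and in dKO the values run from -5.42 (Snhg3) to 0.30 (2410006H16Rik).

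Protein-coding hosts listed in polysomal RNA numbered 15, of which 7 were higher in dKO, among them Rpsa (1.24) and Rps3 (0.97), and 8 lower, among them Taf1d (-1.46) and Rps20 (-1.01). In WT, 7 of the 15 were lower in polysomal than in total RNA and 0 were higher, with a median of -0.16. Of 7 snoRNP genes, 2 were higher and 5 lower in dKO polysomal RNA, the lowest being Nop10 (-2.43), and 0 of the 7 passed in the WT comparison of fractions. Of 7 decay factors, 3 were higher, Upf1 (0.82) among them, and 4 lower in dKO polysomal RNA; in the WT comparison of fractions 1 rose, Magoh (0.46), and 0 fell. These counts stand beside 99.7% called in the polysomal comparison and 12% in the WT comparison of fractions.

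Genes most like each of the 3 over all 8 libraries were found by the distance between centred log2 CPM values, among 5602 candidates. Nearest to Snhg5 were Tlk1 (0.133), Pnisr (0.171) and Wac (0.186), all at short distance. Wac, for example, had 167 and 171 CPM in dKO polysomal RNA, against 287 and 297 CPM in WT polysomal RNA, and 328 and 327 CPM in dKO total RNA, against 275 and 291 CPM in WT total RNA. As in Snhg5, the dKO polysomal libraries were the low ones. Nearest to Rosa26 were Pigf (1.03), Ap1s3 (1.29) and Zxda (1.29), and Pigf (1.10) and Zxda (1.21) were among the nearest to Snhg3, all several times further away. Pigf had 4 and 10 counts in dKO polysomal RNA, against 460 and 484 in WT, while its dKO total RNA held 437 and 383 counts, against 361 and 376 in WT.

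Erythroid markers moved with genotype in both fractions. The 4 reported (Hbb-bh1, Hbb-y, Hba-x and Alas2) were all lower in dKO total RNA, where they summed to 2623 CPM in both dKO libraries, against 4304 and 4374 CPM in WT. In polysomal RNA they summed to 4885 and 4917 CPM in dKO, against 8769 and 8644 CPM in WT, with all 4 lower. Of all listed genes in polysomal RNA, 47.2% were called higher and 52.5% lower. Mesenchyme markers summed to 215 and 206 CPM in dKO, against 279 and 262 CPM in WT total RNA, with 3 of 5 lower. Of all genes tested in total RNA, 14.7% were called higher and 16% lower. In total RNA, neuron markers summed to 3040 and 3050 CPM in dKO, against 3040 and 3070 CPM in WT. Endothelial markers summed to 146 and 149 CPM in dKO, against 142 and 143 CPM in WT. Macrophage markers summed to 32.1 and 29.1 CPM in dKO, against 34.5 and 37.3 CPM in WT. These sums differed less, though single genes were called. Of 5 macrophage markers 1 was lower, C1qa (-1.26). Of 5 neuron markers 1 was lower, Tubb3 (-0.20), and 1 higher, Elavl3 (0.23). Of 5 endothelial markers 0 were called. In polysomal RNA the listed markers differed more, and not always in the direction seen in total RNA. The 4 listed mesenchyme markers summed to 794 and 653 CPM in dKO, against 284 and 286 CPM in WT. Of these, 3 were higher in dKO and 1, Prrx1 (-1.63), was lower. The 4 listed neural progenitor markers summed to 3850 and 3550 CPM in dKO, against 2230 and 2190 CPM in WT. Their directions were mixed, with 2 higher, Nes (1.08) and Hes5 (0.81), and 2 lower, Sox2 (-0.36) and Pax6 (-0.67). The 3 listed neuron markers summed to 1820 and 1890 CPM in dKO, against 2970 and 3000 CPM in WT. The 1 listed endothelial marker was at 168 and 123 CPM in dKO, against 47 and 44.7 CPM in WT, and the 1 listed macrophage marker at 7.35 and 4.14 CPM in dKO, against 12.3 and 17.6 CPM in WT. The part of these cell types in the differences of Snhg3, Snhg5, Snhg6 and Rosa26 was not tested.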

How the data were processed

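Total and polysomal RNA of dKO and WT embryonic brain or neural tube was sequenced, 2 libraries per group. Per the labels' protocols, Trizol was used for extraction and the library kit, NEBNext Ultra Directional, keeps strand. The submitters' processing notes name TopHat, HTSeq and FastQC, and mm9, mm10 and GRCm38 as builds, without versions or roles. The authors deposited whole-number read counts per gene symbol in 2 tables, total and polysomal, not normalized; neither the annotation nor the treatment of strand in counting is stated there.

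Counts were tested with edgeR 4.0.16 in R 4.3.3 (filterByExpr, TMM normalization and the quasi-likelihood F test), adjusted by the Benjamini-Hochberg method over all genes tested, and called at 0.05. Genotypes were compared within a fraction, over its 4 libraries. Comparisons of fractions and the interaction used all 8 libraries with 4 group means, over genes of both tables. SE is the absolute log2 fold change over the square root of F. CPM uses TMM-scaled sums; for polysomal RNA these are sums over listed genes. At the depth of the total RNA libraries (15060560 counts or more), the least counted of the 8 genes had 83 to 107 counts. The interval of a ratio of counts is the Clopper-Pearson interval at 95%. Symbols were matched to GENCODE M21 for transcripts and GC content (98.3% and 99.4% of rows matched). Shown transcripts are those linked to RefSeq, or the longest without a retained intron (Gas5, Snhg8). GC content is that of the longest transcript without a retained intron.

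Named are the 8 genes, Lin28a and Lin28b, the 3 nearest profiles for genes in both tables (mean of at least 5 CPM), and up to 4 genes per list. A gene that the rule names and some sequences are not reported here. The members and lists were chosen with earlier results of these data known. Alternatives were RLE and upper-quartile scaling, other filters, DESeq2 1.42.0, limma-voom 3.58.1, a replicate block, leaving out each library, 1 fit of all libraries, scaling on the empty interval of polysomal ratios, and a loess adjustment for GC. The scripts were tested on simulated counts. Replicate numbers are not stated to pair libraries.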

Additional observations from a re-analysis of the deposited data

Results flagged for a closer look

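For Snhg3, Snhg5 and Rosa26 the genotype difference was not the same in the fractions, by the test of the difference itself (edgeR, interaction of genotype and fraction). The dKO over WT log2 difference in polysomal RNA minus that in total RNA was -5.1933 for Snhg3 (adjusted p = 1.56e-05), -0.9479 for Snhg5 (adjusted p = 0.000374) and -4.1694 for Gt(ROSA)26Sor (adjusted p = 2.76e-06). All 3 stand among rows that look picked for a genotype difference, and 89.5% of the 5780 genes tested passed the same test.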

How the results depend on the processing

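Of the 279 recalculated values of the 8 genes, 264 kept their direction and their side of the threshold, 10 lost the call, 1 gained it and 4 changed sign. The sign changes were in values near 0 that were never called: Gas5 in total RNA was at -0.0269 to 0.0601 over the left-out libraries, Snhg12 in total RNA at -0.1656 to 0.1419, above 0 also without dKO total replicate 2 (0.0895), and Snhg5 in the WT comparison of fractions at -0.1188 to 0.0423, above 0 without WT polysomal replicate 1. The 10 lost calls are those of Snhg3 and Snhg6 in total RNA and of Snhg5 in polysomal RNA given above. The number of genes called in total RNA (4485) was 2944 with DESeq2 and 1286 in the fit of all 8 libraries, which tests 5780 genes. In polysomal RNA (5760) it was 2725 with the GC adjustment, 1265 higher and 1460 lower. In the WT comparison of fractions (693) it was 1177 with limma-voom, and from 179 (without WT polysomal replicate 1) to 1998 (without dKO polysomal replicate 2) when 1 library was left out; it was 416 and 409 without a dKO total library, 206 and 193 without a WT total library, 182 without WT polysomal replicate 2 and 1986 without dKO polysomal replicate 1. The causes were not tested. Rosa26 was called lower in each of these WT fits. Scaling moved the median of all genes in polysomal RNA to -0.11 with RLE and -0.40 with scaling on the empty interval, against -0.35. With the replicate block 4369, 5771, 5182, 598 and 5128 genes were called in the 5 comparisons (total, polysomal, fractions in dKO, fractions in WT, interaction), and no call of the 8 genes changed. Deviations of same-numbered libraries correlated between -0.041 and 0.061, so the numbers are not taken to pair them. Depth limits Snhg12 and the snoRNA rows, and 0 to 11 counts limit Snhg3 and Rosa26 in dKO polysomal RNA.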
